A study of Homo sapiens with 3 samples.

Results

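Chromosome 8 was described from all replication origin calls that lay on it in short nascent strand sequencing (SNS-seq) of the human colorectal cancer line HCT116. The chromosome held 18404 of 247794 EPIC2 regions (7.43%) and 27227 of 442952 MACS2 summits (6.15%) over the 3 replicates, on chromosomes 1 to 22, X and Y. Calls were split by their midpoint at 45 Mb, in the centromeric stretch without calls, and the long arm was split again at 67 Mb, in hg19 coordinates. The segments are called the short arm, the proximal long arm (45 to 67 Mb) and the distal long arm (from 67 Mb to the last call). The 67 Mb boundary had been placed on these same lists by the ratio of EPIC2 regions to summits, so values on its 2 sides are descriptions and not tests of that boundary.

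All cells were untreated wild-type HCT116 grown in RPMI medium, and the 3 replicates formed 1 group with no second condition. Short nascent strands were enriched with λ-exonuclease, converted to double strands and sequenced. Each replicate was called separately with EPIC2, which gives diffuse regions, and with MACS2, which gives single-base summits of narrow peaks. The mapping asked at which sites replication starts in this line, and the study kept calls common to both callers.

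Replication origins are the sites where the origin recognition complex loads the replicative helicase in G1 and where forks start in S phase. A newly fired origin leaves short RNA-primed strands, and the RNA primer shields them from λ-exonuclease while broken DNA is digested. A segment present in more copies per cell also supplies more DNA to such a library. HCT116 is known to carry an unbalanced translocation that adds a copy of the distal long arm of chromosome 8 to chromosome 16. Copy number was not measured in these lists and no source used here names the control library of either caller. The part of copy number in the values was not tested.

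The size of each list set the precision. EPIC2 gave 7585, 4505 and 6314 regions on chromosome 8 in replicates 1, 2 and 3, and MACS2 gave 12674, 3835 and 10718 summits. Replicate 2 had the fewest calls, and the read depth behind the lists is unknown. Calls fell in 144 windows of 1 Mb, of which 43 lay on the short arm, 21 on the proximal long arm and 80 on the distal long arm, and densities are per Mb of these windows. The other chromosomes held 2741 such windows. No replicate had a call from 7 to 8 Mb or from 44 to 46 Mb. With 3 replicates, the smallest p of an exact 2-sided sign-flip permutation test is 0.25, so no comparison here could pass a threshold, and differences are set against the spread between replicates. The distal long arm was delimited on the ratio of EPIC2 regions to summits in these lists. The p given for its comparisons is therefore a description and not a test. The labels do not say that replicates were separate cultures.

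The distal long arm was densest in calls in every replicate, and the proximal long arm was the sparsest. EPIC2 regions reached 65.7, 47.0 and 62.2 per Mb on the distal long arm in replicates 1, 2 and 3. On the short arm they reached 43.2, 13.7 and 24.4 per Mb, and on the proximal long arm 22.4, 7.43 and 13.7 per Mb. Short arm values stood close to the 42.7, 14.6 and 26.5 per Mb of the other chromosomes. The distal long arm thus exceeded the short arm by 1.52, 3.44 and 2.54 times, a mean of 2.50 ± 0.963 (SD, n = 3, exact permutation p = 0.25). The direction was shared by the 3 replicates while the size was not, and replicate 2 gave the largest ratio.

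Summits followed the same order with smaller differences. They numbered 101, 31.7 and 92.7 per Mb on the distal long arm, against 80.8, 22.3 and 56.2 on the short arm and 55.0, 16.3 and 42.1 on the proximal long arm. The ratio of distal long arm to short arm was 1.24, 1.42 and 1.65, a mean of 1.44 ± 0.203 (SD, n = 3, exact permutation p = 0.25). In each replicate it was below the ratio found with EPIC2 regions. This restates the higher ratio of regions to summits on which the boundary was placed.

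**Figure D1:**
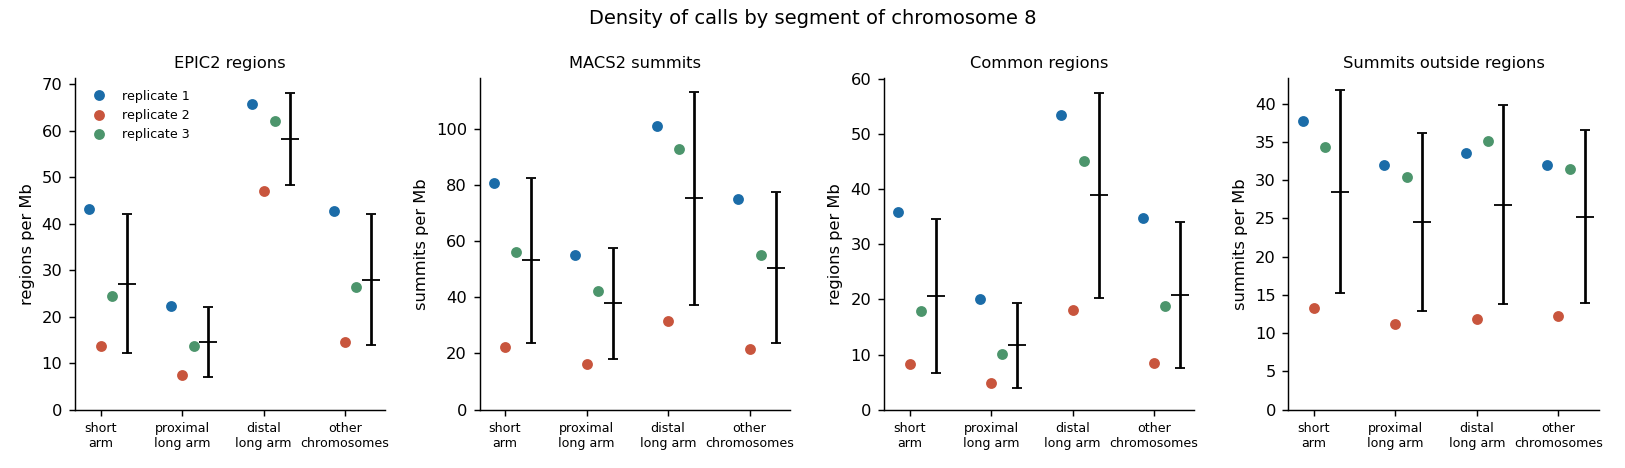
Calls per Mb (y axis of each panel) for the 3 segments of chromosome 8 and for the other chromosomes, as EPIC2 regions, MACS2 summits, common regions and summits outside EPIC2 regions. Points are replicates and the bars beside them give the mean ± SD (n = 3); the distal long arm is highest in each replicate in the first 3 panels, whereas summits outside regions stay between 30.4 and 37.8 per Mb in replicates 1 and 3 and between 11.2 and 13.3 in replicate 2.

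EPIC2 regions that held at least 1 summit of their own replicate are called common regions here. Over all chromosomes, common regions made up 81.7%, 56.8% and 71.7% of EPIC2 regions in replicates 1, 2 and 3. Chromosome 8 held 6235, 1898 and 4593 common regions, of which 4276, 1439 and 3611 lay on the distal long arm. Their density there was 53.5, 18.0 and 45.1 per Mb, against 35.8, 8.30 and 17.9 on the short arm and 20.0, 4.86 and 10.1 on the proximal long arm. Distal values exceeded those of the short arm by 1.49, 2.17 and 2.52 times, a mean of 2.06 ± 0.522 (SD, n = 3, exact permutation p = 0.25). Across the 67 Mb boundary the ratio of distal to proximal long arm was 2.67, 3.70 and 4.47, a mean of 3.62 ± 0.903 (SD, n = 3).

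The proximal long arm was low by a nearly equal factor in every replicate. Relative to the short arm, its EPIC2 density was 0.519, 0.544 and 0.559 (0.541 ± 0.0204, SD, n = 3) and its density of common regions was 0.559, 0.585 and 0.564 (0.569 ± 0.0139, SD, n = 3). Its common regions stood at 0.574, 0.569 and 0.533 of the density of the other chromosomes. Of 22 other chromosomes, 1 had fewer EPIC2 regions per Mb than the proximal long arm in each replicate, and this was chromosome X. The step on the long arm therefore ran from a segment poorer in calls than most chromosomes to one richer than most of them.

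Against the other chromosomes, the distal long arm had 1.54, 2.11 and 2.38 times their density of common regions (2.01 ± 0.433, SD, n = 3, exact permutation p = 0.25). It was not extreme in this measure, since 4, 3 and 1 of 22 chromosomes were denser in replicates 1, 2 and 3, with chromosome 17 or 19 on top. The short arm had 0.982 ± 0.0421 (SD, n = 3) times the density of the other chromosomes, which differed from 1 by less than the SD.

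The ratio of EPIC2 regions to summits set the replicates apart. On the distal long arm it was 0.653, 1.48 and 0.671 regions per summit in replicates 1, 2 and 3. The short arm gave 0.535, 0.613 and 0.435, the proximal long arm 0.407, 0.456 and 0.324, and the other chromosomes 0.569, 0.677 and 0.479. Compared with the rest of chromosome 8, the distal ratio was 1.30, 2.59 and 1.66 times as high (1.85 ± 0.669, SD, n = 3). Replicate 2 alone had more regions than summits there, and its distal value lay above all 22 other chromosomes, the next being chromosome 17 with 1.32. The segment was cut out on this ratio whereas the chromosomes are whole, so its place among them is a description. Chromosome 8 as a whole gave 1.17 in replicate 2, below chromosome 17. In replicates 1 and 3, 5 and 3 chromosomes had a higher ratio than the distal long arm. When the highest-scoring calls were kept in equal numbers from each replicate, the distal ratio over the rest was 1.43, 2.59 and 1.62, so replicate 2 remained apart at equal list sizes. Its cause was not tested.

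By 1 Mb windows, 63 of 80 on the distal long arm had more EPIC2 regions than summits in replicate 2, against 1 of 43 on the short arm and 0 of 21 on the proximal long arm, and replicates 1 and 3 had 0 and 1 such windows on the chromosome. Other autosomes also had such windows in replicate 2, and their share is given below by summit number. In bins of 5 Mb, 15 of the 16 bins wholly on the distal long arm had more regions than summits in replicate 2. This held for none of the 9 bins of the short arm and none of the 4 of the proximal long arm, nor for any bin of replicates 1 and 3. The exception was the bin from 110 to 115 Mb, which gave the lowest distal ratio in every replicate, at 0.444, 0.687 and 0.388. The highest distal bins were 100 to 105 Mb in replicate 1 (0.809), 130 to 135 Mb in replicate 2 (2.08) and 140 to 145 Mb in replicate 3 (0.920). The low point was shared by the replicates and the high points were not.

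**Figure D2:**
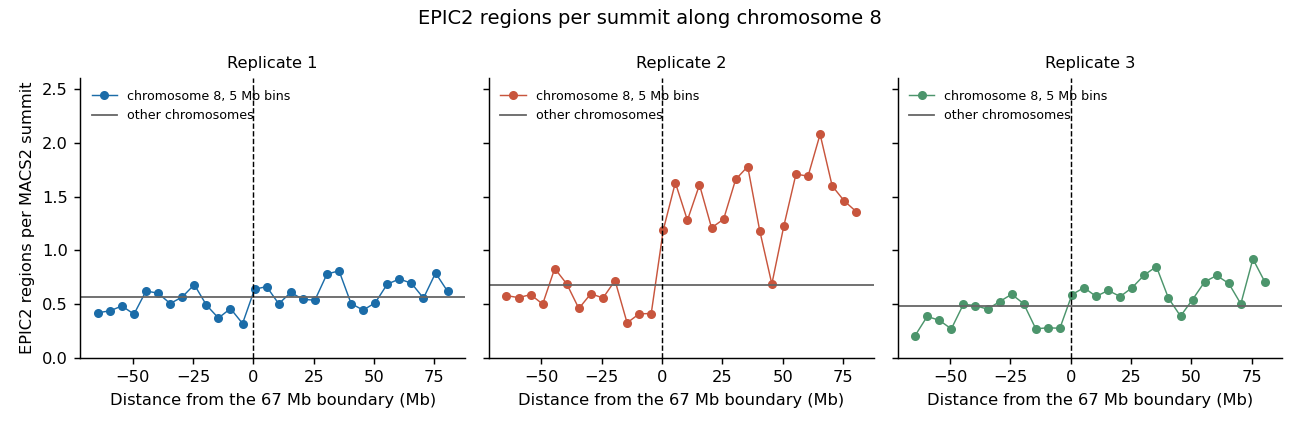
EPIC2 regions per MACS2 summit (y axis) in bins of 5 Mb along chromosome 8 for each replicate, against the distance of the bin's centre from the 67 Mb boundary (x axis, Mb; dashed line at 0). Points are bins and the horizontal line gives the other chromosomes; in replicate 2 the ratio is at most 0.831 left of the boundary and above 1 in 15 of the 16 bins wholly to its right, while replicates 1 and 3 stay below 1 throughout.

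On other autosomes and the short arm, windows with more summits also had more EPIC2 regions per summit. Windows of 1 Mb were therefore compared within classes of summit number. Windows of each replicate were sorted into 3 classes of summit number, bounded at 50 and 96 summits in replicate 1, 15 and 25 in replicate 2, and 40 and 73 in replicate 3. The low class held only 0, 2 and 1 distal windows in replicates 1, 2 and 3. Those of replicates 2 and 3 gave 1.55 and 0.775 regions per summit, above the distal middle class, so the distal long arm did not follow this order. In the middle class of replicate 2, 28 distal windows gave 1.21 regions per summit, against 0.578 in 15 short arm windows and 0.518 in 807 windows of other autosomes. In the same class, replicate 1 gave 0.517 on the distal long arm, 0.457 on the short arm and 0.448 on other autosomes, and replicate 3 gave 0.466, 0.417 and 0.345. The distal long arm was thus above the short arm and the other autosomes within this class in each replicate. In the high class it was also above both, with 0.749 against 0.669 and 0.723 in replicate 1, 1.57 against 0.685 and 0.858 in replicate 2, and 0.708 against 0.557 and 0.655 in replicate 3. Windows with more regions than summits made up 88.0% of the 50 high-class distal windows in replicate 2. They made up 17.3% of the 839 high-class windows of other autosomes and 6.25% of the 16 on the short arm. On other autosomes this share was lower in the low and middle classes. These are single values per replicate with no test. Windows of a class were only roughly alike in summit number. In the middle class of replicate 3, 18 distal windows held 1151 summits, 12 short arm windows 691 and 847 windows of other autosomes 48176. The part of such differences in the ratios was not tested.

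Summits inside and outside EPIC2 regions differed between segments to unlike extents. Summits inside regions numbered 67, 19.9 and 57.6 per Mb there, against 43.0, 8.91 and 21.8 on the short arm, a ratio of 2.15 ± 0.550 (SD, n = 3, exact permutation p = 0.25). Summits outside regions numbered 33.5, 11.8 and 35.1 per Mb on the distal long arm, against 37.8, 13.3 and 34.4 on the short arm and 32.0, 11.2 and 30.4 on the proximal long arm. Their ratio of distal long arm to short arm was 0.888, 0.884 and 1.02 (0.931 ± 0.0775, SD, n = 3), so the replicates differed in direction. Because regions covered more of the distal long arm, less of it was left for other summits. Per Mb not covered by regions the ratio to the short arm was 0.968, 1.03 and 1.25 (1.08 ± 0.149, SD, n = 3), again without a shared direction. By this measure the distal long arm was above the proximal long arm in each replicate (1.19, 1.26 and 1.48) and above the other chromosomes (1.13, 1.13 and 1.34). Inside regions, summits per Mb covered were fewer than on the short arm, with ratios of 0.783, 0.472 and 0.908 (0.721 ± 0.225, SD, n = 3, exact permutation p = 0.25). The larger number of summits inside distal regions thus went with a larger covered length and not with a denser packing of summits in it.

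A larger share of summits fell in regions on the distal long arm, with 66.6%, 62.8% and 62.1% against 53.3%, 40.0% and 38.7% on the short arm. The difference was 13.4, 22.8 and 23.4 percentage points (19.8 ± 5.61, SD, n = 3). The reverse share behaved otherwise. EPIC2 regions of the distal long arm held a summit in 81.4%, 38.3% and 72.6% of cases, against 82.8%, 60.8% and 73.3% on the short arm, where the percentages for all chromosomes were 81.7, 56.8 and 71.7. The difference of distal long arm minus short arm was -1.42, -22.6 and -0.695 percentage points (-8.23 ± 12.4, SD, n = 3), a mean set by replicate 2 and smaller than the spread between replicates. With equal numbers of calls per replicate it was 2.16, -22.6 and 4.93, so its direction held in replicate 2 only.

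EPIC2 regions without a summit numbered 979, 2323 and 1365 on the distal long arm, or 12.2, 29.0 and 17.1 per Mb. On the short arm they numbered 7.44, 5.35 and 6.53 per Mb, so replicate 2 had the highest density of them on the distal long arm and the lowest on the short arm. Of the 2323 in replicate 2, 71.0% held a summit of another replicate and 80.7% overlapped an EPIC2 region of another replicate. For its 230 regions without a summit on the short arm these shares were 70.4% and 71.3%, and for those of the other chromosomes 71.5% and 80.2%. The regions of replicate 2 that lacked their own summit on the distal long arm thus held one of another replicate about as often as those of the short arm and of the other chromosomes. Their median width was 3600 bases, against 3000 bases for its common regions there. Regions of replicate 1 without a summit held one of another replicate in 41.0% of distal and 37.2% of short arm cases. For replicate 3 these shares were 50.6% and 64.8%. On the other chromosomes they were 35.2% in replicate 1 and 61.5% in replicate 3. The density of summits in each segment was not taken into account.

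EPIC2 regions covered 15.3%, 17.7% and 25.8% of the distal long arm, 7.72%, 3.74% and 8.84% of the short arm, and 3.50%, 2.06% and 4.77% of the proximal long arm. Distal coverage exceeded that of the short arm by 1.99, 4.74 and 2.91 times. Number more than width made this difference, least clearly in replicate 1. The mean width was 2337, 3766 and 4142 bases on the distal long arm and 1786, 2740 and 3618 on the short arm. The median width was 1800, 3400 and 3400 bases on the distal long arm, against 1600, 2600 and 3200 on the short arm and 1400, 2800 and 3200 on the proximal long arm, where widths come in steps of 200 bases. The ratio of distal long arm to short arm was 1.12, 1.31 and 1.06 (1.17 ± 0.127, SD, n = 3, exact permutation p = 0.25). With the distal long arm ended at 140 Mb, an alternative chosen after seeing the data, this ratio was 1.00, 1.31 and 1.00. On the other chromosomes the median was 1600, 2800 and 3400 bases, which in replicate 3 equalled that of the distal long arm.

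The upper end of the widths differed more. Regions of at least 10 kb numbered 74, 59 and 239 on the distal long arm, 0, 1 and 13 on the short arm, and 0, 0 and 1 on the proximal long arm. The widest distal region spanned 52600, 41200 and 55800 bases, against 9600, 10400 and 18600 bases on the short arm. As shares of the EPIC2 regions of each segment, these were 1.41%, 1.57% and 4.80% on the distal long arm, against 0%, 0.170% and 1.24% on the short arm and 0.794%, 0.748% and 4.04% on the other chromosomes. The distal share was above that of the other chromosomes in each replicate, by little in replicate 3, and the short arm was below them in all.

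Common regions also lay closer together there. The median distance from the end of a common region to the start of the next was 7600, 25600 and 8200 bases on the distal long arm, 11100, 50500 and 14000 on the short arm, and 18200, 103400 and 22400 on the proximal long arm. Distal spacing was 0.685, 0.507 and 0.586 of that on the short arm (0.592 ± 0.0891, SD, n = 3, exact permutation p = 0.25). The longest stretch without a common region was 340000, 782400 and 390400 bases on the distal long arm, against 1326400, 1681600 and 2382800 on the short arm. Every one of the 80 distal windows held a common region in each replicate, whereas 0, 1 and 3 of 43 short arm windows and 0, 1 and 2 of 21 proximal windows held none in replicates 1, 2 and 3.

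**Figure D3:**
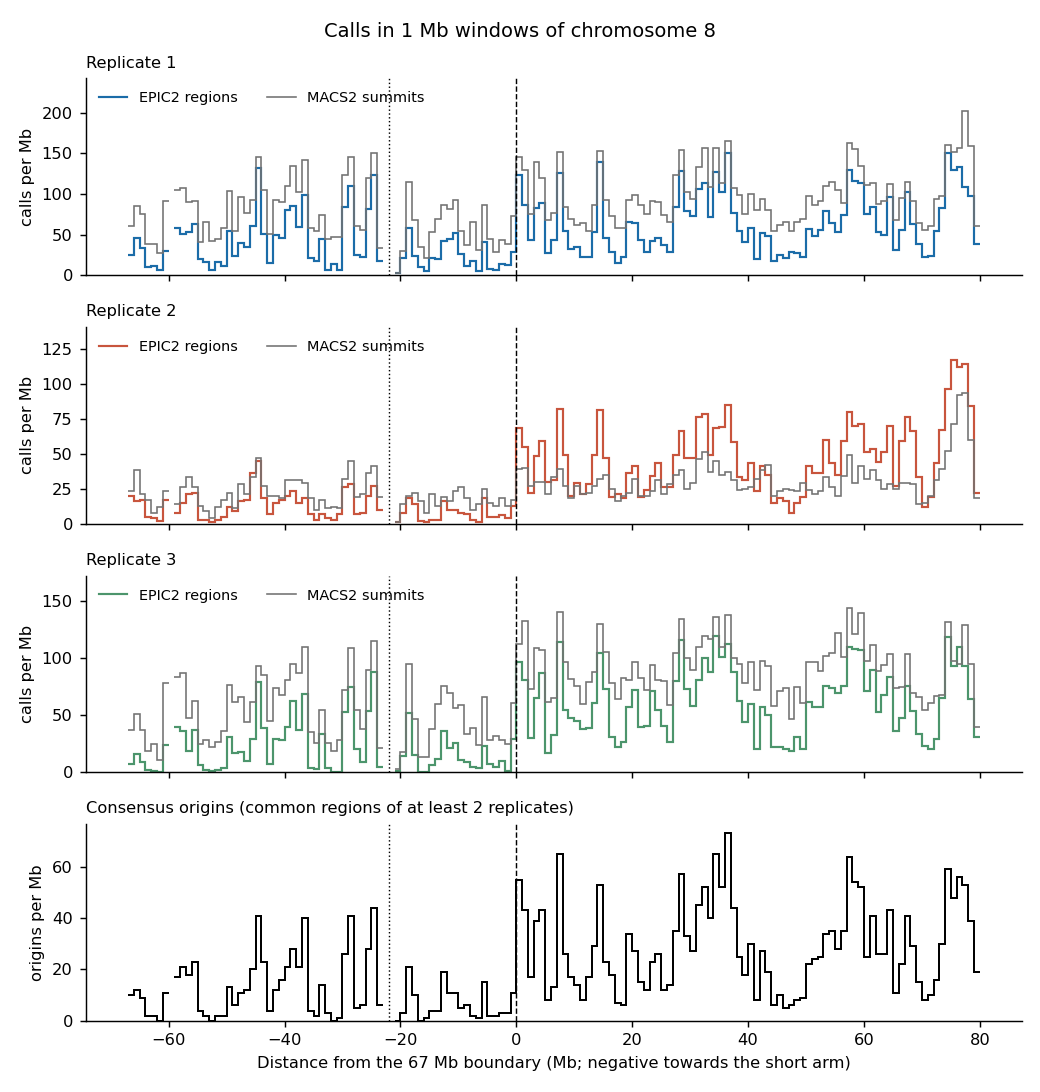
Calls in 1 Mb windows of chromosome 8 (y axes, number per Mb) against the distance of the window from the 67 Mb boundary (x axis, Mb), for EPIC2 regions and MACS2 summits of each replicate and for consensus origins of at least 2 replicates. The dashed line marks the boundary, the dotted line marks the split of the arms at 45 Mb, and gaps are windows without calls; in replicate 2 the line of regions runs above that of summits in 63 of 80 distal windows and in 1 of the 43 short arm and 0 of the 21 proximal windows.

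The boundary itself was steep in all lists. From 66 to 67 Mb there were 29, 13 and 29 EPIC2 regions in replicates 1, 2 and 3, and from 67 to 68 Mb there were 123, 68 and 97. Summits rose from 73, 17 and 61 to 145, 39 and 113 in the same windows, and common regions from 24, 7 and 21 to 93, 29 and 72. Among 141 pairs of neighbouring windows on chromosome 8, this rise in EPIC2 regions ranked 1, 1 and 2 in replicates 1, 2 and 3. Its rank for common regions was 2, 1 and 2, and for summits 5, 1 and 5. As the boundary was placed on the ratio of EPIC2 regions to summits in these lists, the ranks are descriptions and not tests.

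The change was wider than the neighbouring pair of windows. Over 5 Mb on each side, EPIC2 regions numbered 69, 33 and 52 below the boundary and 425, 252 and 360 above it. Summits numbered 226, 76 and 174 below and 608, 166 and 535 above. Not every window above was dense, since the window from 69 to 70 Mb held 43, 22 and 30 EPIC2 regions. Below, the 4 windows from 62 to 66 Mb held 6 to 14, 4 to 6 and 1 to 10 EPIC2 regions in replicates 1, 2 and 3.

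In bins of 250 kb, the rise fell slightly above 67 Mb. The bin from 67 to 67.25 Mb held only 5, 1 and 6 EPIC2 regions in replicates 1, 2 and 3, and the next bin held 28, 17 and 23. A smaller cluster stood below the boundary from 66.5 to 66.75 Mb, with 17, 3 and 15 regions. From 67.25 Mb, the EPIC2 regions of replicate 2 outnumbered its summits in 5 consecutive bins, with 17 against 9, 27 against 10, 23 against 13, 18 against 7 and 21 against 12.

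**Figure D4:**
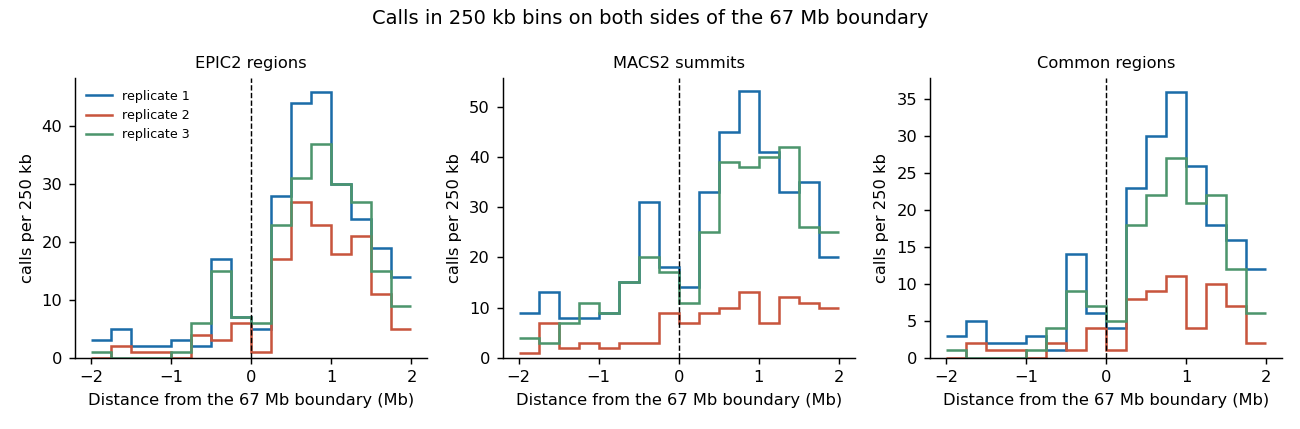
Calls per 250 kb bin (y axes) within 2 Mb of the 67 Mb boundary (x axis, distance in Mb; dashed line at 0) for EPIC2 regions, MACS2 summits and common regions, with 1 line per replicate. EPIC2 regions rise from 5, 1 and 6 in the first bin to the right of the boundary to 28, 17 and 23 in the next one, and a smaller cluster of replicates 1 and 3 lies just to the left.

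Common regions were merged over replicates and kept where at least 2 replicates contributed, and such merged regions are called consensus origins. Over all chromosomes 34.5% of merged regions were kept. Chromosome 8 held 3065 of 42075 consensus origins, with 2348 on the distal long arm, 134 on the proximal long arm and 583 on the short arm. Of the merged regions, 42.4% were kept on the distal long arm (95% Wilson interval 41.1 to 43.7), 30.4% on the short arm (28.4 to 32.5) and 23.4% on the proximal long arm (20.1 to 27.1). These intervals cover counting error only and treat regions as independent. The distal share lay above the percentage for all chromosomes, and both other shares lay below it.

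Consensus origins reached 29.4 per Mb on the distal long arm, 13.6 on the short arm, 6.38 on the proximal long arm and 14.2 on the other chromosomes. The distal density was 2.16 times that of the short arm, as 1 pooled value with a 95% counting interval of 1.98 to 2.37, and 4.60 times that of the proximal long arm. The interval leaves out the spread between replicates, and the ratio to the short arm was 4.72 without replicate 1, 2.56 without replicate 2 and 2.12 without replicate 3. Chromosome 8 as a whole had 21.3 per Mb and ranked 5 of 23 chromosomes, behind chromosome 17 with 40.4, chromosome 19 with 38.5, chromosome 22 with 32.8 and chromosome 16 with 23. Origins held by all 3 replicates showed a larger difference. They made up 25.5% of consensus origins on the distal long arm (23.8 to 27.3), 13.4% on the short arm (10.9 to 16.4), 11.9% on the proximal long arm (7.48 to 18.5) and 18.8% on the other chromosomes. Their density was 7.49 per Mb on the distal long arm against 1.81 on the short arm, a ratio of 4.13. Common regions of replicates 1, 2 and 3 covered 12.6%, 6.39% and 19.0% of the distal long arm. On the short arm they covered 6.26%, 1.94% and 6.28%. Merging asked for an overlap of 1 base only. The part of coverage in the shares kept or held by all replicates was not tested.

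**Figure D5:**
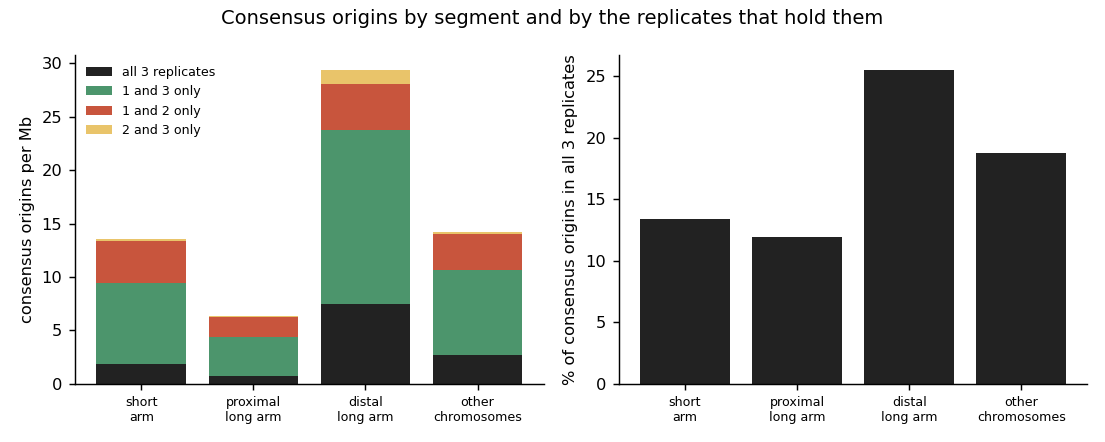
Left, consensus origins per Mb (y axis) by segment and by the replicates that hold them, as stacked bars; right, percentage of consensus origins held by all 3 replicates (y axis). Values are pooled over replicates and have no error bar; the distal long arm stands at 29.4 per Mb and 25.5%, above the short arm with 13.6 per Mb and 13.4%.

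Replicate 3 took a larger part in distal origins than elsewhere. It contributed to 85.3% of consensus origins on the distal long arm, 71.0% on the short arm, 70.1% on the proximal long arm and 76.5% on the other chromosomes. Replicate 2 contributed to 44.5%, 43.6%, 44.0% and 44.0% in that order, which hardly differed. Accordingly, origins of replicates 1 and 2 alone made up 14.7% of the distal set, 29.0% of the set on the short arm and 23.5% on the other chromosomes. Of the common regions of replicate 2, 54.6% met one of replicate 3 on the distal long arm, 23.5% on the short arm, 18.6% on the proximal long arm and 36.8% on the other chromosomes. Common regions of replicate 3 covered 19.0% of the distal long arm, 6.28% of the short arm and 7.73% of the other chromosomes, and this coverage moved with the overlap. Its part in the overlap was not tested. Common regions of replicate 2 met one of replicate 1 in 71.5% of cases on the distal long arm, 69.7% on the short arm, 54.9% on the proximal long arm and 75.1% on the other chromosomes. For this pair the distal long arm and the short arm were close and the proximal long arm was lower.

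Summits gave a measure of sharing that does not depend on region width. On the distal long arm, 29.0% of the summits of replicate 1 lay within 250 bases of a summit of replicate 3, against 17% on the short arm and 17.6% on the proximal long arm. For replicate 2 near replicate 3 these shares were 23.4%, 13.2% and 13.2%. For replicate 2 near replicate 1 they were 52.6%, 51.0% and 40.9%, so the distal long arm and the short arm were close for that pair. Summits of replicate 3 numbered 92.7 per Mb on the distal long arm and 56.2 on the short arm, and the part of this density in the matches was not tested.

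Consensus origins of the distal long arm were wider and closer together than those of the rest of the chromosome. Their median width was 4400 bases, against 3600 on the short arm, 3200 on the proximal long arm and 4000 on the other chromosomes. Widths of at least 10 kb were reached by 13.2% of them (310 of 2348), by 4.80% on the short arm (28 of 583), by 0.746% on the proximal long arm (1 of 134) and by 10.1% on the other chromosomes. The distal values thus lay nearer to those of the other chromosomes than to those of the short arm. They covered 17.7% of the distal long arm, 5.85% of the short arm and 2.48% of the proximal long arm. The median distance between neighbours was 10000, 20700 and 41800 bases in that order, and 13800 on the other chromosomes. No distal window lacked a consensus origin, while 3 of 43 short arm windows and 2 of 21 proximal windows did.

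Within the distal long arm, replicates ordered the windows alike. Spearman's rho of common regions per 1 Mb over the 80 windows was 0.88 for replicates 1 and 2, 0.91 for replicates 1 and 3 and 0.80 for replicates 2 and 3, with Pearson's r of 0.80, 0.90 and 0.65. For summits of replicates 2 and 3 it was 0.64. The replicates share the sequence composition and mappability of each window and neighbouring windows are not independent, so these values are descriptions without a p. The densest 5 Mb bins were 100 to 105 Mb with 274 consensus origins, 140 to 145 Mb with 246 and 95 to 100 Mb with 214, and the sparsest bin wholly on the distal long arm was 110 to 115 Mb with 46. On the short arm, the bins from 20 to 25 Mb and from 25 to 30 Mb led with 100 and 98.

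The windows with the most consensus origins were chromosome 8, 103 to 104 Mb on the distal long arm with 73, 42 to 43 Mb on the short arm with 44, and 48 to 49 Mb on the proximal long arm with 21. The median window held 26, 11 and 4 in that order. In the window from 103 to 104 Mb there were 150, 85 and 113 EPIC2 regions and 165, 37 and 138 summits, so replicate 2 had more regions than summits there too. The longest stretch between neighbouring consensus origins ran over 664800 bases on the distal long arm (chr8:84750201-85415000), 2556400 on the short arm (chr8:34329601-36886000) and 2047800 on the proximal long arm (chr8:49590401-51638200). These stretches were not free of calls, and the one on the short arm held 111, 25 and 57 summits but 20, 5 and 2 common regions.

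Single origins were named by the highest summit scores among those held by all 3 replicates, ranked by percentile within each replicate. The score of a summit is read as −log10 of its q-value. On the distal long arm the leading origin spanned 42400 bases (chr8:145227201-145269600) with top scores of 43.2, 47.8 and 20.7 in replicates 1, 2 and 3. The next (chr8:98608401-98611600) had 80.9, 40.9 and 22.4, and the one after it (chr8:115865201-115870800) had 52.7, 101 and 12.4. On average the top summits of these 3 origins stood at percentiles 99.4, 99.3 and 98.5 of their replicates. The widest consensus origin of the chromosome (chr8:144979401-145091600) spanned 112200 bases and joined 9, 8 and 4 common regions with 33, 15 and 13 summits. It is a merged cluster and not a single site.

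On the other segments the leading origins had lower mean percentiles. On the proximal long arm they were chr8:63323001-63325600, with scores of 22.2, 29.3 and 10.1, chr8:48948601-48956800, with 74.4, 54.8 and 5.67, and chr8:58122001-58123000, with 20.1, 14.3 and 7.95. Their mean percentiles were 93.9, 86.8 and 85.5. On the short arm they were chr8:29527601-29528800, with scores of 16.4, 11.0 and 26.2, chr8:38830601-38835000, with 13.8, 10.9 and 13.7, and chr8:30238201-30243600, with 24.8, 11.1 and 8.12. Their mean percentiles were 87.4, 84.6 and 84.2. The widest consensus origin reached 21800 bases on the short arm (chr8:21986401-22008200) and 12800 on the proximal long arm (chr8:47042801-47055600). Since the distal long arm held 599 origins of all 3 replicates, against 78 and 16, its leading values were drawn from a larger set.

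Scores of whole segments differed less. The median percentile of the summit score within its replicate was 54.8, 49.9 and 58.7 on the distal long arm, 47.9, 48.9 and 48.5 on the short arm and 47.9, 42.4 and 48.5 on the proximal long arm. That of the EPIC2 score was 54.8, 52.7 and 54.6 on the distal long arm and 44.3, 41.5 and 44.0 on the short arm. Among common regions, those with more than 1 summit made up 19.8%, 9.31% and 22.3% on the distal long arm and 18.9%, 7.28% and 19.7% on the short arm. On the other chromosomes they made up 19.7%, 9.26% and 21.7%, close to the distal values.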

How the data were processed

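Libraries of 3 replicates of untreated HCT116 cells were sequenced after λ-exonuclease enrichment of nascent strands. The submitters' processing notes name Bowtie2 2.3.4.2, Picard 2.18.17, MACS2 2.1.0.20151222 and deepTools 3.2.0, with hg19. Per the methods, the authors called each replicate with MACS2 at q = 0.1 and with EPIC2 at a false discovery rate of 0.1, and kept peaks common to both callers in at least 2 of 3 replicates. The deposited EPIC2 regions carry a score of a kind that no source used here names, and it served only for ranks within a replicate. The deposited summit scores were read as −log10 q, since the smallest in each list is 1.00. Read depth is unknown. No source used here names a control library.

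Regions were assigned to segments by midpoint, and densities used 1 Mb windows with a call in any replicate. Common regions were merged at an overlap of at least 1 base. Members, boundaries and lists were chosen with earlier results of these data known. Named regions were, per segment, the 3 origins held by every replicate whose top summit score had the highest mean percentile, the widest origin, the densest window and the longest stretch between origins, besides the windows within 5 Mb of the boundary; bins of 5 Mb and 250 kb singled out in the text were chosen after their values were seen. Comparisons used mean ± SD and an exact sign-flip permutation test over log2 ratios of 3 replicates. Alternatives covered stricter scores, equal list sizes, merging, denominators, boundaries, chromosome ends, replicate number, the unit and leaving out each replicate. The last chr8 call ended at 146294800, past the chromosome end in the reference at hand (145138636), which is GRCh38, so genes were not analysed and no sequence was read. Interval functions were tested on simulated regions. Computation used Python 3.11.15, numpy 2.4.6, pandas 2.3.3 and matplotlib 3.10.9.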

Additional observations from a re-analysis of the deposited data

How the results depend on the processing

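Of 102 values of 9 results under alternatives, each a mean over replicates or a pooled value, 88 moved by less than the spread between replicates (or, for consensus origins, stayed within the counting interval), 14 moved further and 0 changed direction. Leaving out 1 of 3 replicates cannot shift a mean over replicates by a full SD. For the results given as such means, those values could not count as moved further, and their place among the 88 shows no stability. With the upper 50% of EPIC2 scores, the ratio of distal long arm to short arm was 2.63 for common region density, 0.392 for their spacing and 2.81 for consensus origins, and the ratio to the proximal long arm was 5.13. With equal numbers per replicate, these values were 2.57, 0.428, 2.86 and 5.08, and the summit density ratio was 1.70. Consensus origins gave 1.95 with EPIC2 regions merged across gaps of at most 1 kb, 4.13 with all 3 replicates required and 1.74 with summits widened by 250 bases. Ending the distal long arm at 140 Mb, an alternative chosen after seeing the data, gave a spacing ratio of 0.696. In single replicates, the difference in regions holding a summit turned positive with equal numbers (2.16 in replicate 1 and 4.93 in replicate 3) and in replicate 3 with the upper 50% of scores (1.36), merging (1.32) and the end at 140 Mb (0.152). The ratio of median widths to the short arm was 1.00 in replicates 1 and 3 with the end at 140 Mb. In replicate 3 it was also 1.00 with equal numbers and with the upper 50% of scores. The causes of these shifts were not tested. Leaving out each replicate in turn gave ranges of 2.03 to 2.99 for EPIC2 density, 1.33 to 1.54 for summits, 1.83 to 2.34 for common regions, 3.19 to 4.09 against the proximal long arm, 1.48 to 2.12 for regions per summit, 1.09 to 1.22 for width and 0.546 to 0.635 for spacing. Consensus origins ranged from 2.12 to 4.72, the highest without replicate 1. The difference in regions holding a summit ranged from -12.0 to -1.06 percentage points, the smallest without replicate 2. Unknown read depth and the fewer calls of replicate 2 limit all densities. Ratios within a replicate also moved with list size: with equal numbers, common region density over the proximal long arm went from 2.67 to 4.41 in replicate 1 and from 4.47 to 7.12 in replicate 3.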
